A study of Mus musculus with 2 samples.

Results

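The miR-17/92 cluster and its paralogs, the miR-106a/miR-363 and miR-106b/25 clusters, were taken from the listed miRNAs by name, as any arm or copy of miR-17, miR-18a, miR-19a, miR-19b, miR-20a, miR-20b, miR-92a, miR-106a, miR-106b, miR-93, miR-25 or miR-363. Of the 24 mature arms that RefSeq gives under these 12 names, 4 were listed, mmu-miR-92a-3p, mmu-miR-92a-1-5p, mmu-miR-93-5p and mmu-miR-25-3p, out of 197 miRNAs named in either library. The same 4 arms were listed in both libraries, at 5 loci, because miR-92a-3p was listed at 2 of them. The tissue was liver of C57BL/6 mice, wild type and 2 to 3 months old, that could eat freely, in 1 group of 2 replicate libraries. Whether each replicate is a different mouse is not stated, so differences between them may be technical. All p-values here cover counting error in these libraries only. The named miRNAs had 538023 counts in replicate 2 and 306351 in replicate 1. There was no second condition, and every comparison below is between members or between these libraries.

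The 3 clusters descend from duplications of an ancestral cluster, and each makes its miRNAs from a shared primary transcript that Drosha cuts into hairpins and Dicer into mature duplexes. A miRNA pairs with its targets mainly through the seed, bases 2 to 8, so that members with the same seed share many predicted targets whatever cluster they come from. The miR-17 seed family is known for repressing inhibitors of the cell cycle and the proapoptotic Bcl2l11, and miR-92a for restraining vessel growth in endothelium. The miR-17/92 cluster is a transcriptional target of Myc, and the miR-106b/25 cluster sits inside Mcm7, a subunit of the helicase that opens replication origins.

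The sequences below are those the authors' files list for the members, with the seed in capitals, and are shown because the listed arms fall into only a few seed groups.
miR-92a-3p at Mir92-1: uAUUGCACuugucccggccuguau
miR-92a-3p at Mir92-2: uAUUGCACuugucccggccuga
miR-25-3p: cAUUGCACuugucucggucugu
miR-93-5p: cAAAGUGCuguucgugcagguagu
miR-92a-1-5p: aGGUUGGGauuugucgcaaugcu
The seed AUUGCAC was carried by miR-92a-3p and miR-25-3p. It was also carried by miR-92b-3p, which lies in none of the 3 clusters and was listed as well.
miR-92b-3p: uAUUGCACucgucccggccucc
miR-93-5p was the 1 listed miRNA with the seed AAAGUGC. Some of its relatives in the clusters, which were not listed, are given from RefSeq to show the shared seed.
miR-17-5p: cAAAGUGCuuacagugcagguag
miR-20a-5p: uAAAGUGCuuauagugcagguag
miR-106b-5p: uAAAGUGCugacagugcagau
miR-363-3p of the miR-106a/miR-363 cluster, also not listed, has the miR-92a seed.
miR-363-3p: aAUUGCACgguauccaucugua

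Each cluster was listed in part. In miR-17/92 the listed hairpin was 1 of 6, Mir92-1, the last of the cluster in the direction of transcription. In miR-106a/miR-363 it was again 1 of 6, Mir92-2, and in miR-106b/25 it was 2 of 3, Mir93 and Mir25. None of the miR-18 or miR-19 seed families was listed, and of the 6 arms with the miR-17 seed in the clusters only miR-93-5p was. The files list called loci only, so an arm that is missing has no count and no upper limit. The lowest listed count was 1, and 36 of 187 named loci in replicate 2 and 37 of 168 in replicate 1 had 5 counts or fewer. Of 27 other groups of RefSeq hairpins on the same strand, no more than 10 kb apart and with at least 1 listed hairpin, 13 had all hairpins listed, and 46 of their 112 hairpins (41.1%) were listed, with a median of 66.7% per group. Why neighbouring hairpins were listed or not was not tested.

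**Figure D1:**
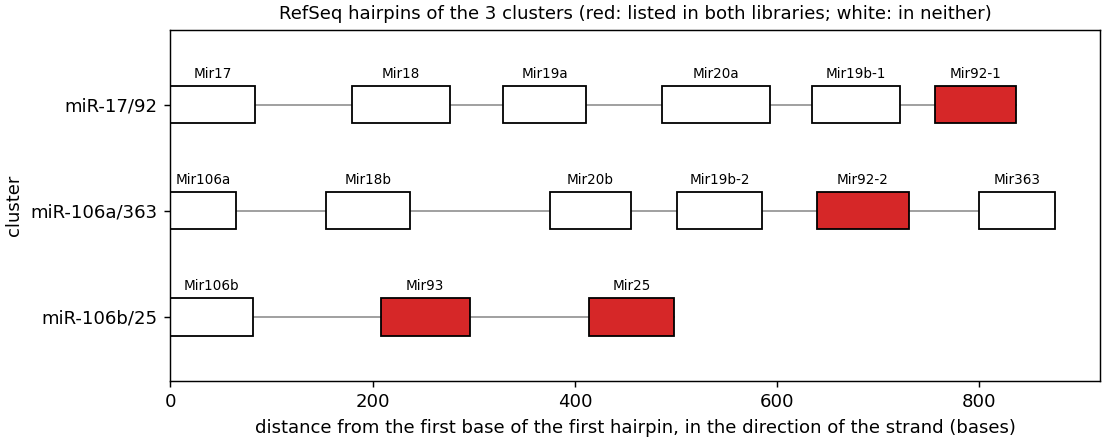
Hairpins of the 3 clusters drawn to scale from RefSeq, by distance in bases from the first base of the first hairpin, with red boxes for hairpins listed in both libraries and white boxes for those listed in neither. Red boxes are 1 of 6 in miR-17/92, 1 of 6 in miR-106a/miR-363 and 2 of 3 in miR-106b/25.

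miR-92a-3p at Mir92-1 lay at chr14:115044476-115044499 on the plus strand (GRCm38), in an exon of the 1 transcript of the long non-coding host gene Mir17hg in GENCODE. Its 5p partner miR-92a-1-5p lay at chr14:115044437-115044459 in the same exon. The second locus of miR-92a-3p, at Mir92-2, was chrX:52741853-52741874 on the minus strand, where GENCODE gives no gene other than the miRNA itself. miR-93-5p lay at chr5:138165573-138165596 and miR-25-3p at chr5:138165332-138165353, both on the minus strand, as is Mcm7. The authors' files call both exonic in Mcm7. In GENCODE both lay in introns of the 2 overlapping protein-coding Mcm7 transcripts and in an exon of 1 retained-intron transcript.

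The 4 listed arms differed widely in level, and miR-92a-3p held nearly all of their counts. miR-92a-3p had 72200 counts in replicate 2 and 27148 in replicate 1. It was second only to miR-22-3p in both libraries, where its share of named miRNA counts was 13.4% in replicate 2 (13.3 to 13.5, exact 95% interval) and 8.86% in replicate 1 (8.76 to 8.96). It made up 99.0% of the counts of the listed members in replicate 2 and 97.9% in replicate 1. The 4 members together took 11.3% ± 3.18 of counts (SD, n = 2), and without miR-92a-3p the other 3 took 0.166% ± 0.0407. Levels here are shares of reads, which were not calibrated for how well each miRNA ligates and amplifies.

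miR-93-5p, the listed member of the miR-17 seed family, had 523 counts in replicate 2 and 428 in replicate 1. Its share was 0.0972% (0.0891 to 0.106) and 0.140% (0.127 to 0.154) in those libraries, which placed it at ranks 43 and 44. miR-25-3p, which has the seed of miR-92a-3p and the host gene of miR-93-5p, had 78 counts in replicate 2 and 65 in replicate 1. Its share was 0.0145% (0.0115 to 0.0181) in replicate 2, at rank 86, and 0.0212% (0.0164 to 0.0270) in replicate 1, at rank 81. miR-92a-1-5p, the other arm of the Mir92-1 hairpin, had 136 counts in replicate 2 and 103 in replicate 1. Its share was 0.0253% (0.0212 to 0.0299) in replicate 2 and 0.0336% (0.0274 to 0.0408) in replicate 1.

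The order was the same in both libraries, miR-92a-3p, miR-93-5p, miR-92a-1-5p and then miR-25-3p, and within each library the intervals of neighbours in this order did not overlap. Across libraries the lowest pair came close. The interval of miR-92a-1-5p in replicate 2 overlapped that of miR-25-3p in replicate 1, and their means of 0.0294% ± 0.00590 and 0.0179% ± 0.00475 (SD, n = 2 each) differed by about the sum of their SDs. The relative outside the clusters, miR-92b-3p, had 72 counts in replicate 2 and 16 in replicate 1, with intervals of 0.0105% to 0.0169% and 0.00299% to 0.00848%. Within replicate 2 its interval overlapped that of miR-25-3p, and within replicate 1 it lay below. By seed, the AUUGCAC group had 13.4% of all named counts in replicate 2 and 8.89% in replicate 1, and miR-92a-3p made up 99.8% and 99.7% of the group. The AAAGUGC group was miR-93-5p alone.

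**Figure D2:**
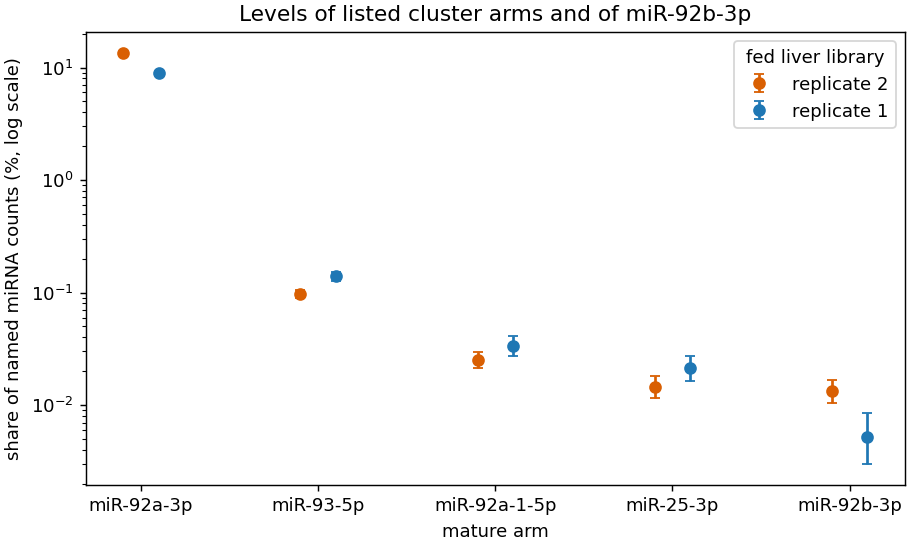
Share of named miRNA counts (percent, log scale) of the 4 listed cluster arms and of miR-92b-3p, 1 point per library with its exact 95% interval. miR-92a-3p stands at 13.4% in replicate 2 and 8.86% in replicate 1, and every other arm shown lies below 0.2%.

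**Figure D3:**
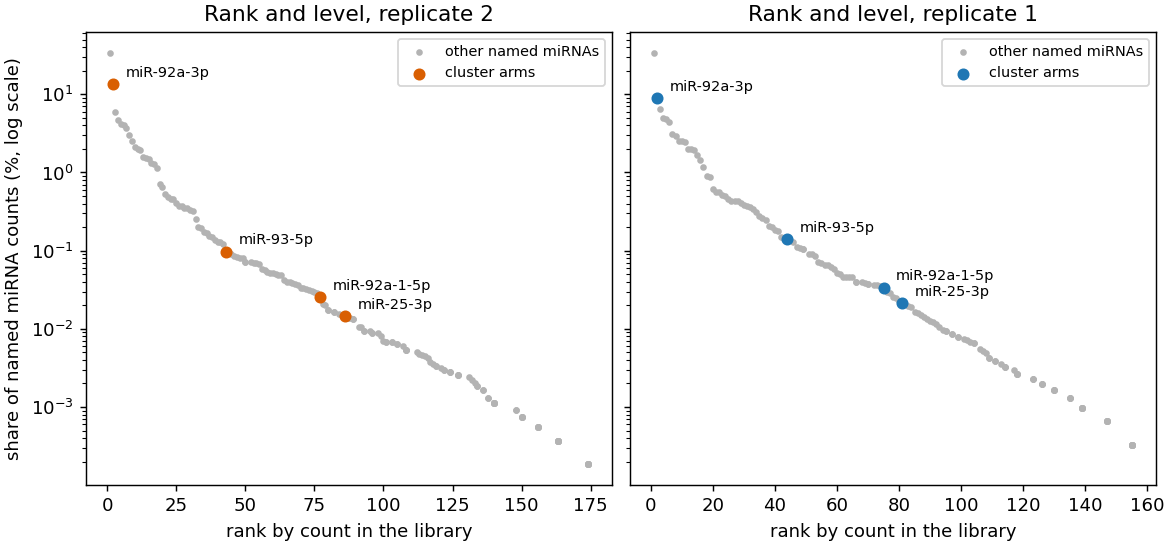
Share of named miRNA counts (percent, log scale) against rank in each library, with the cluster arms as large points among all named miRNAs. miR-92a-3p is at rank 2 in both libraries, miR-93-5p at 43 and 44, miR-92a-1-5p at 77 and 75 and miR-25-3p at 86 and 81 in replicates 2 and 1.

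In mean level miR-92a-3p lay between miR-22-3p (33.8% ± 0.241) and miR-26a-5p (6.19% ± 0.309), each of them less variable between the libraries than miR-92a-3p at 11.1% ± 3.22. miR-93-5p lay between miR-100-5p (0.122% ± 0.0129) and miR-221-3p (0.114% ± 0.0340), at 0.118% ± 0.0301, so its place among these was within the spread. miR-25-3p lay between miR-30c-1-3p (0.0186% ± 0.00284) and miR-125a-5p (0.0170% ± 0.000945), again within the spread. Hepatocyte miRNAs were plentiful in these libraries, with miR-122-5p, miR-192-5p and miR-194-5p all listed and together at 4.65% in replicate 2 and 4.33% in replicate 1.

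Ratios between members within a library do not depend on how libraries are scaled. The proportions of the Mcm7 pair lay close together. miR-93-5p exceeded miR-25-3p 6.71-fold in replicate 2 (5.28 to 8.62, exact 95% interval) and 6.58-fold in replicate 1 (5.06 to 8.69), and the proportions did not pass a test of difference (2-sided exact Fisher test, adjusted p = 0.928 over 4 pairs). The intervals are wide, so a change of this ratio by a modest factor was not detectable at this depth. miR-92a-3p exceeded miR-93-5p 138-fold in replicate 2 (127 to 151) and 63.4-fold in replicate 1 (57.7 to 69.9), which differed between the libraries (exact Fisher test, adjusted p = 2.1e-30). It exceeded miR-25-3p, which has the same seed, 926-fold in replicate 2 (742 to 1171) and 418-fold in replicate 1 (328 to 541), also a difference past the test (exact Fisher test, adjusted p = 6.41e-06).

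The members that passed the test between libraries went opposite ways. With TMM scaling, miR-92a-3p was higher in replicate 2, at a log2 ratio of replicate 2 to replicate 1 of 0.76, or 1.70-fold, with an exact binomial p too small for the computer to hold as anything but 0. miR-93-5p was lower in replicate 2, at -0.36 (exact binomial test, adjusted p = 0.000496). miR-25-3p (-0.38, adjusted p = 0.229) and miR-92a-1-5p (-0.25, adjusted p = 0.322) did not pass the same exact test. Thus 2 of 4 members passed, 1 in each direction. Of all 131 tested miRNAs 44.3% passed, 21.4% higher and 22.9% lower in replicate 2, so the members' share is near the background. The median over the 4 members was -0.30, against -0.02 over all tested miRNAs. The test takes account of counting error alone and compares these 2 libraries, not conditions.

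With the counts of miR-92a-3p left out of the total, miR-93-5p stood at 0.112% in replicate 2 and 0.153% in replicate 1, and miR-25-3p at 0.0167% and 0.0233%. The part of miR-92a-3p in the shares of the others was not tested. By log2 ratio miR-92a-3p ranked 12 of 131 tested miRNAs and 2 of the 73 with at least 100 counts in each library. Among the non-members with such counts, the ratios closest to its own were those of miR-127-3p (0.76), miR-181c-5p (0.60) and miR-671-3p (0.58), a likeness that rests on 2 libraries only. The same-seed relative miR-92b-3p was also higher in replicate 2, 2.83-fold (exact binomial test, adjusted p = 0.000146), but from 72 and 16 counts.

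Each listed marker miRNA of other cells had fewer counts than miR-92a-3p, as did every named miRNA except miR-22-3p. The hepatocyte markers were also lower than miR-92a-3p, so this order does not set the cell types apart. Of the erythroid markers miR-451a, miR-144-3p, miR-486a-5p and miR-486b-5p, 1 of 4 was listed, miR-486b-5p with 14 counts in replicate 2, and none was listed in replicate 1. Of 6 immune markers 2 were listed, miR-150-5p and miR-146a-5p, with 1140 counts in replicate 2 and 1044 in replicate 1, or 0.212% and 0.341%. Both endothelial markers, the arms of miR-126a, were listed, with 191 and 136 counts, or 0.0355% and 0.0444%. Both listed immune arms were lower in replicate 2 by the exact binomial test, and neither endothelial arm passed it. Their part in the level of miR-92a-3p was not tested, and in whole tissue fewer cells of a type and less RNA per cell cannot be told apart.

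**Figure D4:**
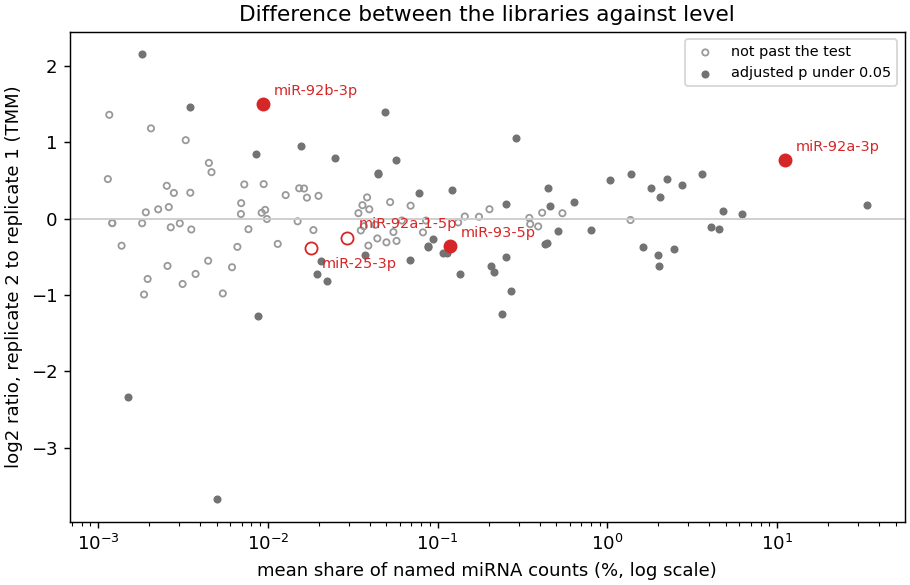
Log2 ratio of replicate 2 to replicate 1 with TMM scaling against mean share of named miRNA counts (percent, log scale) for 131 tested miRNAs, filled where the exact binomial test gave an adjusted p under 0.05, with cluster arms and miR-92b-3p in red. miR-92a-3p is at 0.76, miR-93-5p at -0.36, miR-25-3p at -0.38 and miR-92a-1-5p at -0.25.

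Both arms were listed for 1 member hairpin, Mir92-1, where nearly all counts were on the 3p arm. The RefSeq mature 3p arm is the same at Mir92-2, so some 3p reads counted at Mir92-1 may come from that hairpin. The arm shares below are of the counts listed at Mir92-1 and carry this limit. The 5p arm held 0.188% of these counts in replicate 2 (0.158 to 0.222, exact 95% interval) and 0.378% in replicate 1 (0.309 to 0.458), a 3p to 5p ratio of 531 and 264. The shares differed between libraries (2-sided exact Fisher test, adjusted p = 2.92e-06). Of 47 hairpins with both arms listed and at least 20 counts in each library, 8.51% differed. The median share of the minor arm over these hairpins was 1.29%, and Mir92-1 ranked 17 of 47 from the lowest. The 5p counts (136 and 103) were 1.32-fold higher in replicate 2 and the 3p counts 2.66-fold higher, before any scaling, so the arm shares and the level of miR-92a-3p are not separate observations. miR-93-3p, miR-25-5p and miR-92a-2-5p were not listed, so no arm share is given for Mir93, Mir25 or Mir92-2.

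The copies of miR-92a-3p were listed with unlike counts. The Mir92-2 locus had 1545 counts in replicate 2 and 758 in replicate 1, or 2.10% (1.99 to 2.20, exact 95% interval) and 2.72% (2.53 to 2.91) of the counts at both loci, which differed between the libraries (2-sided exact Fisher test, adjusted p = 1.05e-08). The RefSeq mature miR-92a-3p of 21 bases is the same at both loci, so a read of that length or shorter cannot be placed. Here the hairpins part at the next base, shown in capitals with the templated bases that follow.
Mir92-1, RefSeq hairpin: uauugcacuugucccggccugUUG
Mir92-2, RefSeq hairpin: uauugcacuugucccggccugA
The listed sequence at Mir92-2 ended with an A at this place and the one at Mir92-1 had a U, each matching its own hairpin. Such a match does not by itself show which locus a read came from. The split between the copies thus depends on how reads without these bases were assigned, which the sources used here do not give.

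The 3′ ends of the members were the same in both libraries. Of 152 loci listed in both, 121 had the same listed sequence in both (79.6%), and all 5 member loci were among them. Each member began at the base where the RefSeq mature miRNA begins, as did 90.4% of the arms matched to a RefSeq mature miRNA in replicate 2 and 92.5% in replicate 1. miR-92a-1-5p and miR-25-3p also had the RefSeq length, and miR-93-5p and the Mir92-2 copy of miR-92a-3p were 1 base longer with the base that the hairpin encodes. The Mir92-1 copy of miR-92a-3p was 3 bases longer. An extension of 3 or more was listed for 4 of 146 matched loci in replicate 2 and 4 of 133 in replicate 1.

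Letters that the RefSeq hairpin does not have stood at the end of 2 member loci, and are in capitals here. The listed hairpins also had letters off RefSeq outside the arm, in 70.8% of matched loci in replicate 2 and 64.8% in replicate 1. Whether the end letters are bases added to the RNA was not tested.
miR-92a-3p at Mir92-1: uauugcacuugucccggccuguAU
miR-25-3p: cauugcacuugucucggucugU
Counted from 1 at the 5′ end, with the RefSeq base first, these are U23A and G24U in miR-92a-3p and A22U in miR-25-3p, in both libraries. Letters off RefSeq anywhere in the arm were listed in 20 of 154 loci matched to a RefSeq hairpin in replicate 2 (13.0%) and 14 of 142 in replicate 1 (9.86%). In the last 3 bases they were listed in 19 of these loci in replicate 2 and 12 in replicate 1. Over all these loci, 21 of 23 letters in replicate 2 and 13 of 15 in replicate 1 were in the last 3 bases. Of the same letters 22 of 23 and 14 of 15 were A or U, and none was in a seed. A limit of at least 1000 counts was set after the values were seen. It left 26 loci matched to a RefSeq mature miRNA in replicate 2 and 25 in replicate 1. Of these loci, miR-92a-3p at Mir92-1 alone had such letters and alone was extended by 3 bases or more. Other named miRNAs with at least 1000 counts had no such match and were not part of this comparison. The files give 1 sequence per locus, and neither how it was chosen nor the share of reads that end there is given, so how many reads carry these letters is unknown.

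**Figure D5:**
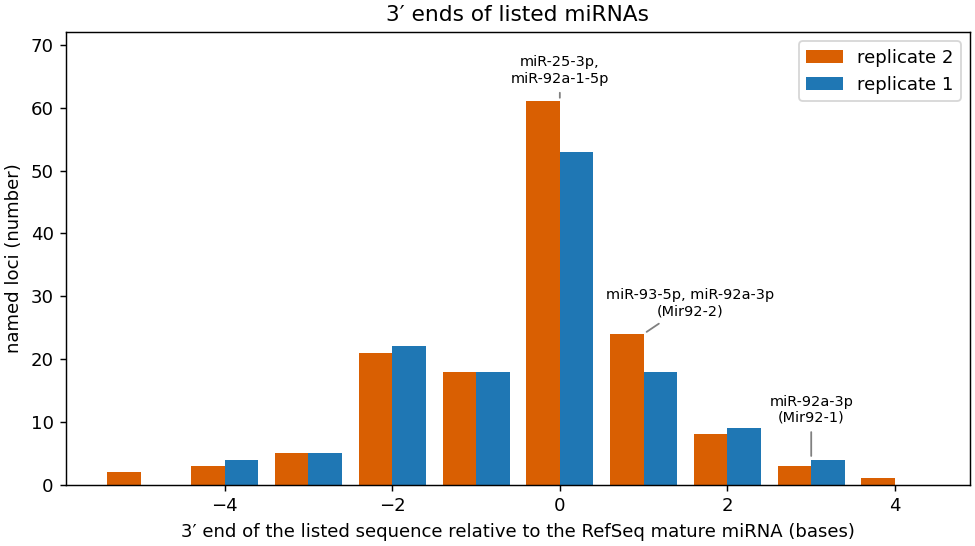
Number of named loci by the position of the listed 3′ end relative to the RefSeq mature miRNA (bases, positive where longer), in both libraries, with the places of the member arms named. miR-92a-3p at Mir92-1 is at 3, a place shared by 3 loci in replicate 2 and 4 in replicate 1, itself included, while miR-25-3p and miR-92a-1-5p are at 0, the most frequent end.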

How the data were processed

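Small RNA libraries of liver from fed mice were prepared by an Illumina TruSeq kit from 1 µg of total RNA, per the labels' protocols. cutadapt 1.5, FastQC 0.11.2, Bowtie 1.0.1 and the build GRCm38 (mm10) are named in the submitters' processing notes. The sources used here do not give the locus caller, its filters or its handling of reads that match several loci. The authors deposited whole-number read counts per called locus, not normalised. Loci without a miRNA name held 2.46% of listed counts in replicate 2 and 5.02% in replicate 1, and were left out.

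Where a name had several loci, the highest count was used. Shares are of the 538023 and 306351 counts that this left in replicates 2 and 1, with exact Clopper-Pearson 95% intervals, which cover counting error only. File positions were raised by 1. The libraries were compared by a 2-sided exact binomial test at TMM sizes (edgeR 4.0.16), Benjamini-Hochberg adjusted over 131 miRNAs that both libraries list and that have 10 counts or more in sum. Log2 ratios used a prior count of 0.5. Arm shares and count ratios between members were compared between libraries by 2-sided exact Fisher tests, the latter chosen after the counts were seen. The binomial test was also run on simulated counts that had counting error alone. That simulation does not cover TMM scaling or other variation between libraries. Sequences were set against RefSeq (GRCm38.p6) and hosts against GENCODE M21. DESeq2 1.42.0 size factors were among the alternatives.

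The members and lists were chosen with earlier results of these data known. The arms described are every listed arm of the 12 names, relatives with the same seed, the miRNAs next to miR-92a-3p, miR-93-5p and miR-25-3p in mean level, and the 3 with the log2 ratio closest to that of miR-92a-3p among those with at least 100 counts in each library.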

Additional observations from a re-analysis of the deposited data

How the results depend on the processing

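The shares of the 4 members and of the members together moved by less than 1 SD with all listed counts as the total, with counts summed over loci and with a minimum of 10 counts summed. Those of miR-93-5p, miR-25-3p and miR-92a-1-5p did so too with miR-92a-3p left out of the total, an alternative chosen after seeing the data. The SD of 2 libraries is wide beside what these changes can do, so the shares had little room to move by 1 SD. With either replicate left out, the share of miR-92a-3p ranged from 8.86% to 13.4%, that of miR-93-5p from 0.0972% to 0.140% and that of the members together from 9.06% to 13.6%. All member log2 ratios kept their sign under DESeq2 size factors, library totals, other count minimums, a prior count of 2, summed loci and unlisted miRNAs as 0. miR-92a-3p and miR-93-5p passed the exact binomial test under each, at 0.60 to 0.81 and -0.52 to -0.31. miR-25-3p passed with library totals alone, at -0.55 (adjusted p = 0.0488 by the exact binomial test), which made 3 members called in place of 2, with 19 of all tested miRNAs higher and 45 lower in place of 28 and 30. Library totals gave a median log2 ratio of -0.19 over the tested miRNAs, against -0.02 with TMM. The arm share of Mir92-1 kept its call with a minimum of 5 or 100 counts. Against the hairpin sequence that the files list, 0 member loci had bases off the hairpin, in place of 2 against RefSeq, because every listed arm is contained in its own listed hairpin. No paired analysis was possible because the labels give 1 group. Below about 100 counts, as for miR-25-3p, counting error limits what can be said.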

Other observations

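The hairpin sequences in the files also carried letters that RefSeq does not have, outside the listed arm, in 109 of 154 loci matched to a RefSeq hairpin in replicate 2 (70.8%) and 92 of 142 in replicate 1 (64.8%). The Mir92-1 hairpin is shown for both libraries with all letters off RefSeq in capitals, those of the arm's 3′ end included, over chr14:115044434-115044499 on the plus strand of GRCm38.
Replicate 2: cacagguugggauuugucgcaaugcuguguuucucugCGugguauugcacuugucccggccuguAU
Replicate 1: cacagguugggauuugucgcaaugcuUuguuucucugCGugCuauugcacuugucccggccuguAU
Counted from 1 at the first base of this stretch, U38C and A39G in the loop were in both libraries and G27U and G42C in replicate 1 only. Counted likewise from the first base of their own listed hairpins, Mir93 had G25U in both libraries and A27U in replicate 1 only. Mir92-2 had G40C in replicate 2 and none in replicate 1, and Mir25 had none outside its arm in either. The sources used here do not say how these hairpin sequences were made, so these letters are not read as variants of the mice.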
